A study of Mus musculus with 12 samples.

Results

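In mouse dorsal root ganglia (DRG), 10 genes were examined: Ndn, Gpr162, Bhlha9, Th, C1ql4, Hcrtr1, Fam167a, Rnf112, Ppm1j and Slc4a10. They were picked by name, out of 44345 genes in the deposited table, for their small shifts between mice given indole-3-propionic acid (IPA) and mice given vehicle, with the nerve intact or crushed. The values that chose them are therefore the differences between IPA and vehicle, which are given below as a description with no test. All 10 were among the 15603 genes that passed the filter on low values. DRG of segments L4 to L6 hold the cell bodies of the sensory neurons whose axons run in the sciatic nerve. All animals were C57BL/6 mice 6 to 8 weeks old. Crushed IPA mice received IPA in phosphate-buffered saline (PBS) at 20 mg/kg by daily gavage for 10 days, then a sciatic nerve crush and 3 more days of IPA. Crushed PBS mice received PBS for the same 10 days and the crush; whether their gavage went on after it is not clear from the labels. Intact IPA mice and intact PBS mice had the 10 days of gavage and no crush. Within IPA mice, crush therefore cannot be told apart from the 3 more days of IPA. Averages over treatment include these mice. Each group had 3 libraries, and each library pooled the DRG of 2 mice.

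IPA is a tryptophan product of gut bacteria and is known as a ligand of the pregnane X receptor and the aryl hydrocarbon receptor (AhR). The 10 genes share no pathway. By role they are a neuropeptide receptor (Hcrtr1), an orphan receptor (Gpr162), the enzyme that limits the rate of catecholamine synthesis (Th), a protein phosphatase (Ppm1j), a ubiquitin ligase with a GTPase domain (Rnf112), a secreted synaptic protein (C1ql4), a basic helix-loop-helix (bHLH) transcription factor (Bhlha9), an imprinted growth regulator (Ndn), a bicarbonate transporter (Slc4a10) and a gene whose function is not well described (Fam167a). In the DRG, Th is best known as a marker of C low-threshold mechanoreceptors, unmyelinated neurons that respond to light touch.

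The 12 libraries held 40938034 to 62501969 reads as recovered from the table, and values are in a unit like CPM, a gene's reads scaled to the size of its library. With the nerve intact, IPA libraries held 51482387 to 56798355 reads and PBS libraries 41694916 to 49481144, with no overlap. After crush these ranges overlapped, at 44808587 to 62501969 in IPA mice and 40938034 to 58013747 in PBS mice. The part of depth in the IPA differences was not tested. In a principal component analysis the first component separated crushed from intact libraries and held 76.4% of the variance, and the second held 8.36%. On the second, crushed PBS replicate 1 lay at -23.6, intact PBS replicate 2 at -12.5 and intact PBS replicate 1 at -9.08. All other libraries, among them every IPA library, lay at 1.28 to 11.8. The 15 neuronal markers summed to 17219 to 18219 in crushed IPA mice and 16416 to 17533 in crushed PBS mice. They summed to 18310 to 18613 in intact IPA mice and 17411 to 18525 in intact PBS mice. The tissue thus carried its label, and the ranges of IPA and PBS overlapped in both states. The middle sums were 17890 in crushed IPA and 17496 in crushed PBS mice, and 18551 in intact IPA and 17553 in intact PBS mice. Of the 15 markers, 4 lay wholly higher and 2 wholly lower in intact IPA than in intact PBS mice, where 12.7% and 12.5% of all tested genes did. After crush, 2 lay wholly higher in IPA mice and 0 lower, where 5.86% and 5.58% of all tested genes did. All 8 macrophage markers rose after crush, and 6 of 7 skeletal muscle markers did. The macrophage markers summed to 126 to 148 in crushed IPA mice and 134 to 142 in crushed PBS mice, against 36.1 to 55.6 in intact IPA mice and 37.5 to 45.4 in intact PBS mice. The spinal cord list had 3 of 4 tested genes higher (Gfap, Slc1a2 and Aldh1l1) and Aqp4 lower after crush. Of 4 tested Y-linked genes 3 fell after crush, and 2 lay wholly lower in intact IPA mice, where 12.5% of all tested genes did; Xist reached at most 0.0698 in any library. Of the other lists, satellite glia had 2 of 7 genes higher and 2 lower, Schwann cells 0 and 1 of 7, endothelial cells 3 and 0 of 6, and fibroblasts 2 and 0 of 7. Of the 15 neuronal markers, 4 rose and 9 fell after crush, where 28.8% of all tested genes rose and 30.6% fell. The median log2 difference of the neuronal markers was -0.24, against -0.01 over all genes. The muscle markers summed to 44.1 to 262 in crushed IPA mice and 86.1 to 267 in crushed PBS mice, against 33.3 to 79.8 in intact IPA mice and 66.9 to 109 in intact PBS mice. The part of these in the results below was not tested. The samples are bulk tissue, so the neuronal origin of the 10 genes was not measured, and fewer cells of a type cannot be told apart from less RNA per cell.

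After crush, 8 of the 10 genes were higher in all 3 IPA libraries than in any PBS library, where 5.86% of all tested genes were. Slc4a10 was lower in all 3, where 5.58% of genes were, and only Fam167a overlapped. With the nerve intact, 7 genes were higher in all 3 IPA libraries, against 12.7% of all tested genes, and Fam167a was lower in all 3, against 12.5%. Ndn and Slc4a10 overlapped there. In either direction, 11.4% of all genes did not overlap after crush and 25.2% intact. The shares of all genes are given for scale only, since these differences chose the members. The intact and the crushed comparison share no library. The differences were small. They lay between -0.53 and 0.53 after crush and between -0.31 and 0.41 with the nerve intact, on the scale of log2(value + 0.5), on which every log2 difference here was fitted; its error is the SE. Over all 15603 genes, limma called 0.0% for IPA against PBS in either state at an adjusted p under 0.05, and edgeR likewise 0. With libraries weighted by their spread (array weights, fitted gene by gene), limma called 232 genes higher and 92 lower after crush and 1931 and 1342 intact. At an unadjusted p under 0.05, limma counted 1258 genes after crush and 1902 intact, and edgeR 1224 and 1880. DESeq2 called 9 genes higher and 6 lower after crush, 0.0961% of all tested genes, and 1 higher and 2 lower intact, 0.0192% of them.

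**Figure D1:**
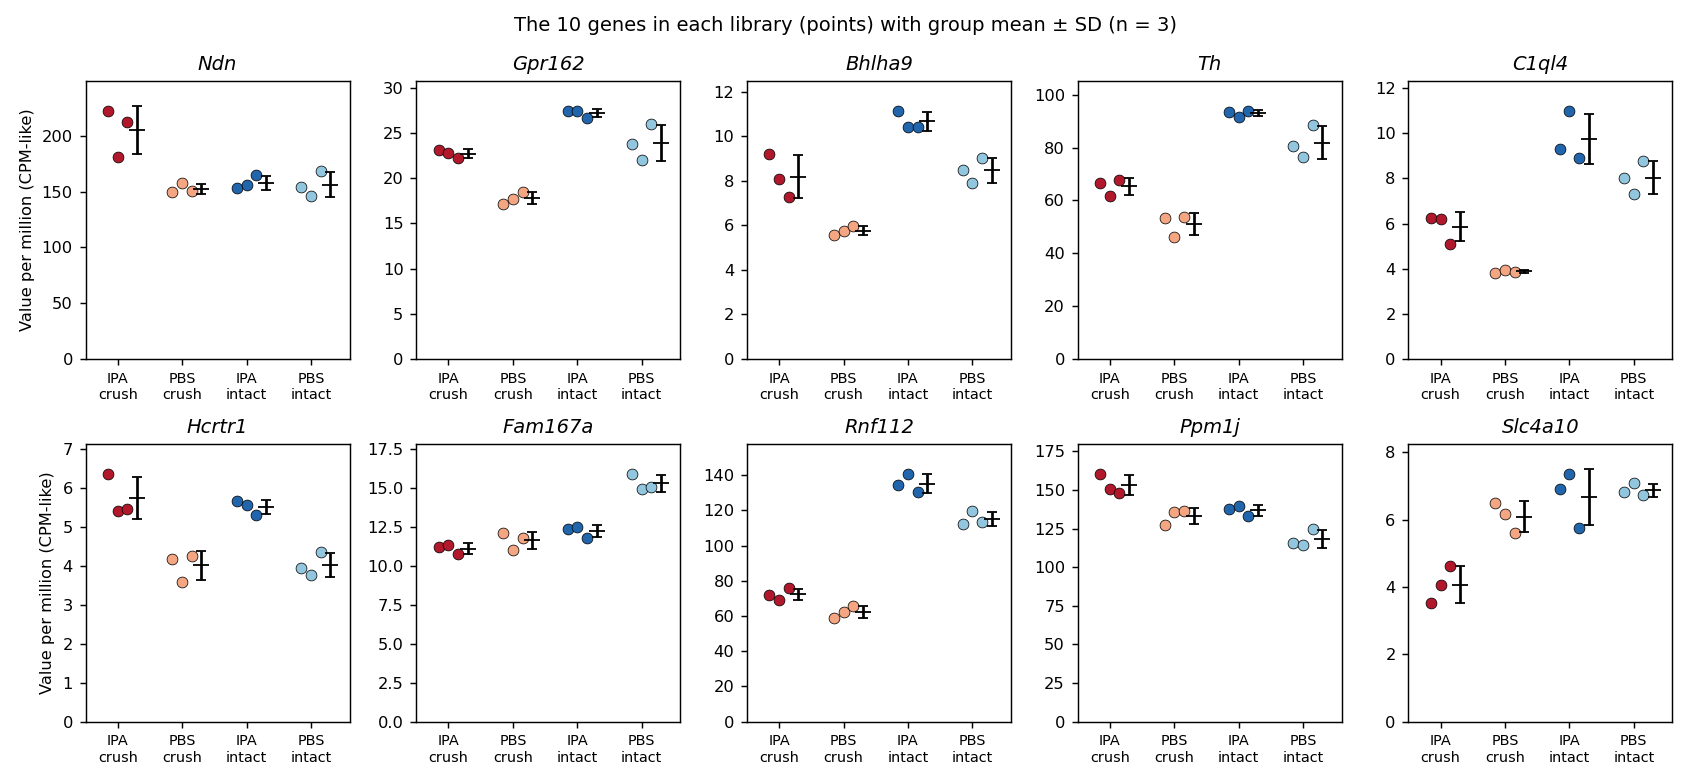
CPM-like value of each of the 10 genes in each of the 12 libraries (points, replicates 1 to 3 from left to right) with the group mean ± SD (bars, n = 3), for crushed IPA, crushed PBS, intact IPA and intact PBS mice. After crush, 8 genes lie wholly higher in IPA mice and Slc4a10 wholly lower; Th, C1ql4 and Rnf112 lie lower in all 6 crushed libraries than in all 6 intact ones.

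The IPA differences moved with base composition in these libraries. In the top decile of tested genes by transcript GC content the median IPA minus PBS difference was 0.12 after crush and 0.14 intact, and in the bottom decile it was -0.04 after crush and -0.10 intact. Of the 10 genes, C1ql4, Bhlha9, Ppm1j, Hcrtr1, Gpr162, Rnf112, Th and Fam167a were above the median GC content of 49.8%, at 61.0%, 60.3%, 58.7%, 58.7%, 58.7%, 56.8%, 54.1% and 51.1%. Ndn at 44.5% and Slc4a10 at 42.1% were below it. A slope on GC content, per SD of GC, was taken for each library. It was fitted to log2 values relative to each gene's mean over the 12 libraries, so its sign is relative to the average library. The slope was -0.018 to 0.086 in crushed IPA mice and -0.097 to 0.044 in crushed PBS mice. With the nerve intact it was 0.0032 to 0.041 in IPA mice and -0.091 to -0.0031 in PBS mice, and these groups did not overlap. The lowest slopes were -0.097 in crushed PBS replicate 1, -0.091 in intact PBS replicate 2 and -0.065 in intact PBS replicate 1. The same libraries held the fewest reads. With each library's trend on GC content and length removed, the intact differences became 0.17 for Bhlha9, 0.13 for Rnf112, 0.11 for Th, 0.11 for C1ql4, 0.08 for Ppm1j and 0.07 for Gpr162, each smaller by more than 1.5 times. Hcrtr1 stood at 0.29 and Fam167a at -0.32. Ndn stood at 0.08, and Slc4a10 at 0.06, against -0.05 as deposited. After crush, Ppm1j was reduced by more than 1.5 times, to 0.10. The others kept their sign, at 0.45 for Ndn, 0.40 for C1ql4, 0.37 for Hcrtr1, 0.34 for Bhlha9, 0.31 for Th, 0.26 for Gpr162, 0.14 for Rnf112, -0.48 for Slc4a10 and -0.05 for Fam167a. This removal was chosen after seeing the data, and whether the trend is technical was not tested.

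**Figure D2:**
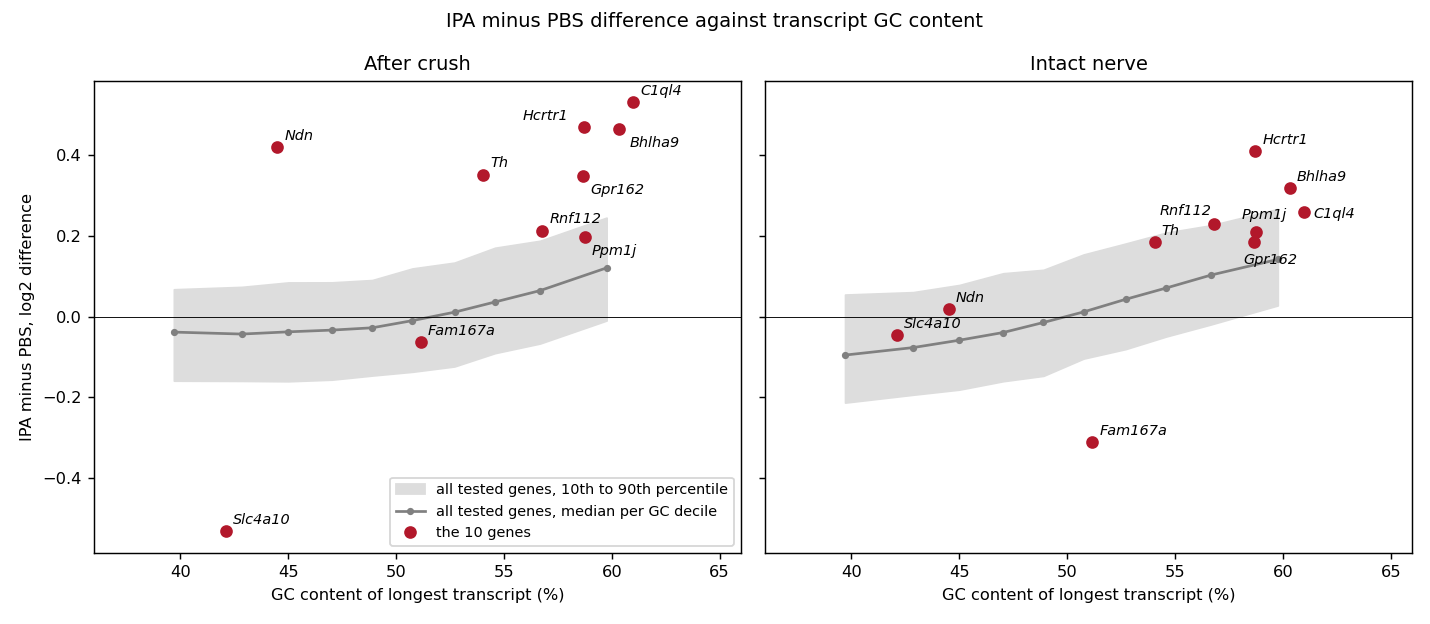
IPA minus PBS log2 difference against the GC content of the longest transcript (percent), after crush and with the nerve intact, for the 10 genes (red points) and for all tested genes (grey line, median per GC decile; band, 10th to 90th percentile). The grey line climbs with GC content in both panels; with the nerve intact Hcrtr1 and Fam167a lie farthest from the band.

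**Figure D3:**
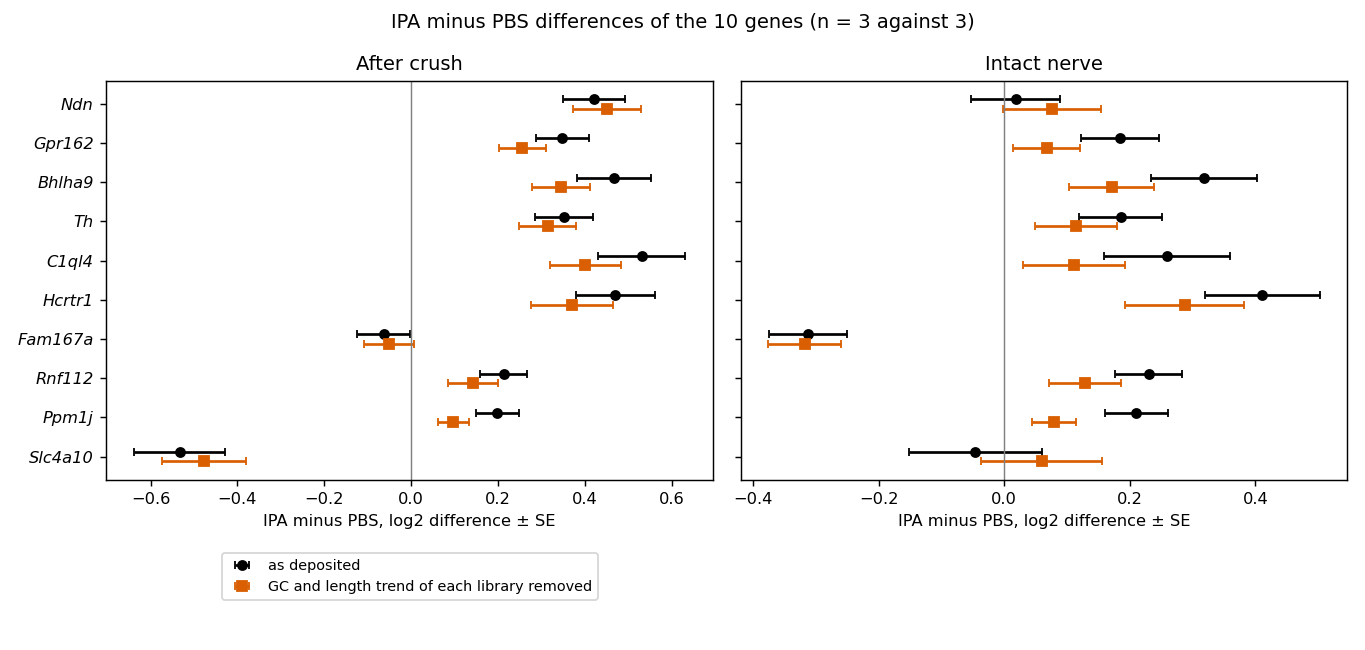
IPA minus PBS log2 difference ± SE of the 10 genes after crush and with the nerve intact (3 against 3 libraries), from the values as deposited (circles) and after removal of each library's trend on GC content and length (squares). The squares of the GC-rich genes lie nearer 0, more so with the nerve intact; Ndn and Slc4a10 after crush and Fam167a intact hardly move.

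Crushed PBS replicate 1 lay farthest out on the second component. Without it, the IPA minus PBS differences after crush were 0.41 for Ndn, 0.32 for Gpr162, 0.44 for Bhlha9, 0.38 for Th and 0.52 for C1ql4. They were 0.50 for Hcrtr1, 0.17 for Rnf112, 0.17 for Ppm1j, -0.49 for Slc4a10 and -0.04 for Fam167a. Only Fam167a, the smallest, changed by more than 1.5 times.

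Averaged over treatment, 9 of the 10 genes changed after crush, where 59.4% of all tested genes did. Of these 7 fell, against 30.6% of all genes, and 2 rose, against 28.8%. The choice of the genes did not rest on this comparison, but it shares its residual spread with the IPA comparisons that did choose them, so their count is a description beside the share of all genes. Over 6 crushed and 6 intact libraries, Th, C1ql4 and Rnf112 lay wholly lower, where 35.7% of all tested genes did not overlap in either direction and 17.5% lay wholly lower. Over both treatments the mean of Rnf112 was 67.3 ± 6.27 after crush and 125 ± 11.8 intact, a mean 46.2% lower (SD, n = 6 each). C1ql4 was 45.2% lower and Th 33.4% lower by the same means. Ndn and Ppm1j were 14.0% and 12.4% higher. Within treatment, the log2 difference of Ndn after crush was 0.37 ± 0.07 in IPA mice and -0.03 ± 0.07 in PBS mice. The averaged rise of Ndn thus rests on IPA mice, where crush cannot be told apart from the 3 more days of IPA. Ppm1j rose in both, by 0.16 ± 0.05 in IPA mice and 0.17 ± 0.05 in PBS mice. The 9 calls and their directions were the same under the 24 other settings and omissions of a library that were run. Hcrtr1 was called under none of them, and its value changed sign in some, at -0.02 with the trend on GC content and length removed.

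**Figure D4:**
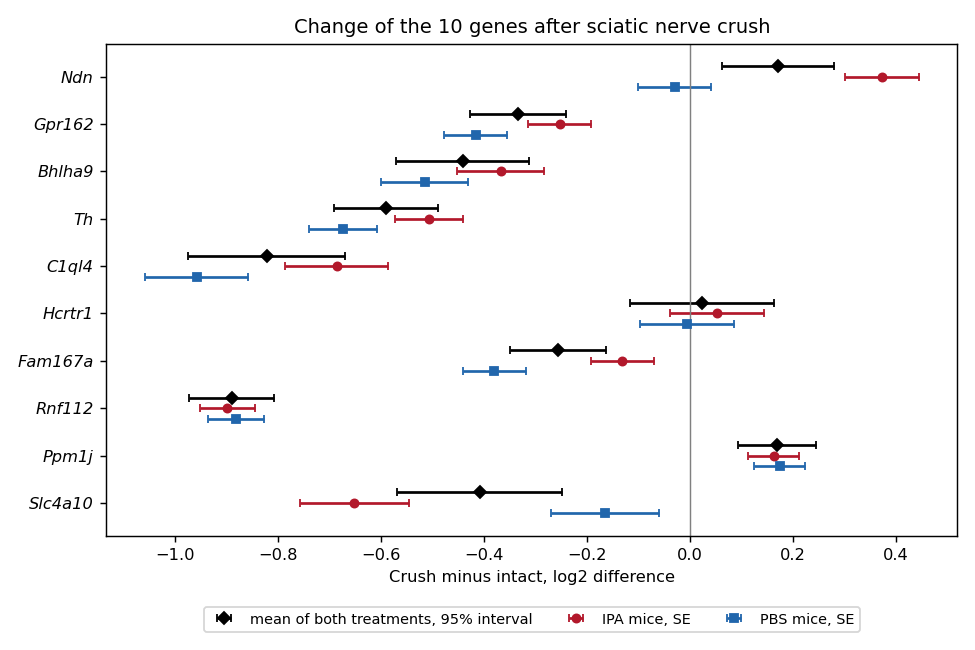
Crush minus intact log2 difference of the 10 genes, averaged over treatment (diamonds, 95% interval) and within IPA mice (circles, SE) and PBS mice (squares, SE). Rnf112, C1ql4 and Th lie farthest to the left, and the interval of Hcrtr1 spans 0. The SE bars of IPA and PBS mice do not meet for Ndn, Slc4a10, C1ql4, Fam167a, Th and Gpr162.

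The receptor Hcrtr1 showed a difference of similar size in both states. Hcrtr1 encodes the orexin 1 receptor, which couples to Gq proteins and phospholipase C in neurons that receive the hypothalamic peptide orexin (chr4:130130217-130139359, minus strand, on GRCm38, the build called mm10 in the submitters' processing notes). Hcrtr1 measured 6.38, 5.41 and 5.47 in crushed IPA mice, against 4.18, 3.59 and 4.27 in crushed PBS mice. It measured 5.67, 5.57 and 5.31 in intact IPA mice, against 3.95, 3.77 and 4.37 in intact PBS mice. The IPA libraries lay above the PBS libraries in both states with no overlap. The IPA minus PBS difference was 0.47 ± 0.09 (SE) after crush and 0.41 ± 0.09 intact. Hcrtr1 was the only one of the 10 genes without a called change after injury. Averaged over treatment, crush minus intact was 0.02 ± 0.06, with a 95% interval of -0.12 to 0.16 and a limma adjusted p of 0.779. The values of Hcrtr1 rest on 198 to 489 reads per library.

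The Hcrtr1 promoter is shown because IPA is known as an AhR ligand, and the core motif of the AhR site, GCGTG, occurs 3 times in it on the strand shown. The sequence is the 250 bases before a RefSeq start of Hcrtr1 on GRCm38.p6 (chr4:130139163-130139412, minus strand), with the motif in capitals.
Hcrtr1 promoter: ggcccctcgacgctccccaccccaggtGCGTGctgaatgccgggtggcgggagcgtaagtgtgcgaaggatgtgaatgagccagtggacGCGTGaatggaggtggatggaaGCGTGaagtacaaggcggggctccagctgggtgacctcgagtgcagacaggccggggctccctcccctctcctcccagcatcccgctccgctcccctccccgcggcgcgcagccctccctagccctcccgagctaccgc
This RefSeq start lies inside the GENCODE model of Hcrtr1 given above, so 197 of the 250 bases, with 2 of the 3 motifs, are within that gene model. RefSeq gives 3 start windows for Hcrtr1, and neither of the other two holds the motif. On either strand, GCGTG or its complement CACGC was present at least 1 time in 28.2% of all 32851 promoter windows of this length. The window shown held 69.2% GC and 21 CpG (C followed by G), against medians of 52.4% and 6 over all windows. The motif itself holds a CpG, and the share was not adjusted for this. Promoter windows were found for 7 of the 10 genes, and those of Hcrtr1, Bhlha9, Th and Ndn held the motif while those of C1ql4, Ppm1j and Slc4a10 did not. A match describes letters in the window only.

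The other genes of orexin signalling mostly fell after crush. Of 7 listed genes 6 were tested; 5 fell and 1 rose, where 30.6% of all tested genes fell and 28.8% rose, and the median log2 difference was -0.37 against -0.01 over all genes. The second orexin receptor, Hcrtr2, averaged 6.21 ± 1.003 in crushed IPA mice and 6.25 ± 1.496 in crushed PBS mice, against 9.68 ± 0.641 in intact IPA mice and 11.1 ± 0.992 in intact PBS mice (SD, n = 3 each), a fall of 0.70 on the log2 scale (limma adjusted p = 3.74e-05). Plcb3, a phospholipase C isoform, fell, at -0.76 ± 0.04 (adjusted p = 1.16e-09). Gnaq, the alpha subunit of Gq, changed by -0.37 ± 0.04 (adjusted p = 7.89e-07), and Plcb4 by -0.38 ± 0.05 (adjusted p = 1.28e-05). The peptide gene itself, Hcrt, was listed at 0 in all libraries of crushed PBS, intact IPA and intact PBS mice, and its highest value in crushed IPA mice was 0.0283. No gene of any list described here was called by limma for IPA against PBS.

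Gpr162, an orphan G protein-coupled receptor found mainly in brain (chr6:124858444-124863983, minus strand), measured 23.1, 22.8 and 22.2 in crushed IPA mice, against 17.1, 17.7 and 18.4 in crushed PBS mice. It measured 27.4, 27.4 and 26.6 in intact IPA mice, against 23.7, 21.997 and 25.96 in intact PBS mice. The groups did not overlap in either state, although intact PBS replicate 3 came close to the IPA libraries. Its IPA minus PBS difference was 0.35 ± 0.06 after crush and 0.18 ± 0.06 intact. Gpr162 fell after crush, with a log2 difference of -0.33 ± 0.04 (SE; limma adjusted p = 1.48e-05). Of 36 tested orphan receptors of its class, 9 rose and 20 fell after crush, where 28.8% of all tested genes rose and 30.6% fell, and the list's median was -0.17 against -0.01 over all genes. Gpr151, a marker of injured sensory neurons, averaged 103 ± 8.202 in crushed IPA mice and 115 ± 0.711 in crushed PBS mice, against 1.18 ± 0.156 in intact IPA mice and 1.16 ± 0.277 in intact PBS mice, and rose by 6.04 ± 0.08 (adjusted p = 6.69e-16). Gpr19, Gpr85 and Gpr153 rose by 1.09 ± 0.06, 0.78 ± 0.05 and 0.83 ± 0.05, with adjusted p = 1.61e-09, 2.76e-08 and 9.57e-09. Gpr153 is a close paralogue of Gpr162.

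Among the enzymes, Th had a higher level in IPA mice in both states and fell after crush. Th encodes tyrosine hydroxylase (chr7:142892752-142931128, minus strand). Th measured 66.5, 61.7 and 67.6 in crushed IPA mice, against 53.3, 46.2 and 53.8 in crushed PBS mice. It measured 93.4, 91.6 and 93.9 in intact IPA mice, against 80.5, 76.4 and 88.5 in intact PBS mice. IPA and PBS libraries did not overlap in either state, and all 6 crushed libraries lay below all 6 intact ones. The IPA minus PBS difference was 0.35 ± 0.07 after crush and 0.19 ± 0.07 intact. Averaged over treatment, Th fell after crush, with a log2 difference of -0.59 ± 0.05 (SE; limma adjusted p = 1.02e-07).

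The Th promoter is shown because a cyclic AMP response element (CRE), TGACGTCA, just before the start is a known control element of this gene. The 250 bases before the RefSeq start on GRCm38.p6 (chr7:142899996-142900245, minus strand) hold it once, with its first base at position -45, in capitals.
Th promoter: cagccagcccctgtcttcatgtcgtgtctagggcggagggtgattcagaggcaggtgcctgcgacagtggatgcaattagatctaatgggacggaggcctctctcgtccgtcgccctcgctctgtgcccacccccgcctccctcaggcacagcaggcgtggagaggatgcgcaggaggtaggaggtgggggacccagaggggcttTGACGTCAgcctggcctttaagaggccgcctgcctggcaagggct
All 250 bases lie inside the longer GENCODE model of Th given above. The same 8 letters, which read alike on both strands, were found in 1.55% of the 32851 promoter windows. No other window found for the members held them, and only 7 of the 10 genes had a window.

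Of 13 tested genes of catecholamine enzymes and transporters 5 rose and 3 fell after crush, where 28.8% of all tested genes rose and 30.6% fell, and the list's median was 0.07 against -0.01 over all genes; these shares are near each other. Gch1, which makes the cofactor that tyrosine hydroxylase needs, averaged 7.57 ± 0.394 in crushed IPA mice and 7.34 ± 0.467 in crushed PBS mice, against 3.57 ± 0.0782 in intact IPA mice and 3.58 ± 0.0847 in intact PBS mice, and rose by 0.96 ± 0.05 (adjusted p = 2.26e-09). Cyb561, an electron carrier of secretory vesicles, rose by 0.56 ± 0.03 (adjusted p = 6.49e-09). Slc18a1, a vesicular monoamine transporter, changed by -0.39 ± 0.07 (adjusted p = 1.72e-04). Ddc, the enzyme after Th, averaged 0.685 ± 0.179 in crushed IPA mice and 0.669 ± 0.176 in crushed PBS mice, against 0.973 ± 0.226 in intact IPA mice and 1.07 ± 0.0777 in intact PBS mice, a difference of -0.38 ± 0.10 (adjusted p = 0.00619). Dbh, which makes noradrenaline, did not pass the filter and averaged 0.298 ± 0.117 in crushed IPA mice and 0.7901 ± 0.476 in crushed PBS mice, against 0.0661 ± 0.0383 in intact IPA mice and 0.103 ± 0.0407 in intact PBS mice.

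Th is also found in sympathetic neurons, so both kinds of Th-holding cells were checked. The 6 sympathetic markers summed to 1.96 to 2.79 in crushed IPA mice and 2.37 to 4.47 in crushed PBS mice, against 0.199 to 0.393 in intact IPA mice and 0.314 to 0.531 in intact PBS mice. Their marker Hand2 reached at most 0.290 in any library, and only Phox2a passed the filter. The sums were higher after crush, where Th was lower. Of 10 other markers of C low-threshold mechanoreceptors, 1 rose and 8 fell after crush, where 28.8% of all tested genes rose and 30.6% fell, and the list's median was -0.36 against -0.01 over all genes. Gfra2, a receptor for neurturin, averaged 132 ± 9.48 in crushed IPA mice and 114 ± 4.83 in crushed PBS mice, against 211 ± 7.03 in intact IPA mice and 183 ± 13.7 in intact PBS mice, and fell, at -0.68 ± 0.04 (adjusted p = 1.34e-08). Cacna1i, a T-type calcium channel, and Zfp521, a zinc finger protein, fell too, at -0.69 ± 0.06 (adjusted p = 3.69e-07) and -0.47 ± 0.05 (adjusted p = 4.25e-06). The gene that rose was Ret, a growth factor receptor that many sensory neurons hold, at 0.42 ± 0.03 (adjusted p = 1.10e-08). Between IPA and PBS mice, Gfra2, Cacna1i and Runx1 lay wholly higher in IPA mice after crush, and Gfra2, Runx1, Cacna1h and Fam19a4 with the nerve intact; none lay wholly lower. Of all tested genes, 5.86% lay wholly higher after crush, and 12.7% higher and 12.5% lower intact. With each library's trend on GC content and length removed, Gfra2 and Runx1 lay wholly higher after crush, where 6.79% of all genes did, and Gfra2, Runx1 and Fam19a4 intact, where 9.43% did. The marker sums of the list overlapped, at 1742 to 1792 in crushed IPA mice and 1713 to 1811 in crushed PBS mice, and at 1609 to 1650 in intact IPA mice and 1601 to 1650 in intact PBS mice. These sums were higher after crush although 8 of the 10 markers fell, so they do not follow most of the list. The part of the number of such cells in the Th values was not tested.

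Ppm1j, a protein phosphatase of the PPM family (chr3:104781056-104786018, plus strand), was the most abundant of the 10 per length. It was also 1 of 2 that rose after crush when averaged over treatment. Ppm1j measured 161, 151 and 148 in crushed IPA mice, against 127, 136 and 137 in crushed PBS mice. It measured 138, 139.5 and 133 in intact IPA mice, against 116, 114 and 125 in intact PBS mice. The groups did not overlap in either state, and the IPA minus PBS difference was 0.20 ± 0.05 after crush and 0.21 ± 0.05 intact. After crush it rose, with a log2 difference of 0.17 ± 0.04 (SE; limma adjusted p = 9.36e-04). That rise was 0.08 with an adjusted p of 0.00869 once each library's trend on GC content and length was removed. Ppm1j overlaps Fam19a3 on the other strand, which measured a mean of 15.7 in crushed IPA mice and 14.0 in crushed PBS mice, against 21.6 in intact IPA mice and 20.95 in intact PBS mice. Whether reads were counted by strand is not given in the sources used here, so shared reads cannot be told apart. Of 18 tested PPM phosphatases 2 rose and 10 fell, where 28.8% of all tested genes rose and 30.6% fell, and the list's median was -0.15 against -0.01 over all genes. Ppm1h, a close paralogue, fell, at -0.31 ± 0.03 (adjusted p = 1.55e-06), and Ppm1m, the other close paralogue, rose, at 0.17 ± 0.07 (adjusted p = 0.0423). Phlpp1, Ppm1e and Pptc7 fell, at -0.34 ± 0.04, -0.54 ± 0.06 and -0.35 ± 0.04, with adjusted p = 4.79e-06, 5.73e-06 and 9.64e-06.

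Rnf112 fell the most of the 10 genes after crush. Rnf112, also called neurolastin, is a membrane protein of neurons that joins a RING domain to a GTPase domain like those of dynamins (chr11:61448442-61454131, minus strand). Rnf112 measured 71.8, 69.1 and 75.8 in crushed IPA mice, against 58.7, 62.3 and 65.8 in crushed PBS mice. It measured 134, 141 and 130.3 in intact IPA mice, against 112, 119.8 and 113 in intact PBS mice. IPA libraries lay above PBS libraries in both states, and all 6 crushed libraries lay far below the 6 intact ones. As fitted, IPA minus PBS was 0.21 ± 0.05 after crush and 0.23 ± 0.05 intact. With array weights the value after crush was 0.12 when fitted gene by gene, and 0.09 in a fit that stopped before it converged. Averaged over treatment, the change after crush was a log2 difference of -0.89 ± 0.04 (SE; limma adjusted p = 1.57e-10). Of 15 tested dynamin-like GTPases 2 rose and 7 fell, where 28.8% of all tested genes rose and 30.6% fell, and the list's median was -0.08 against -0.01 over all genes. Ehd1, which acts in endosome recycling, rose by 0.75 ± 0.05 (adjusted p = 9.35e-09). Dnm1 and Dnm3, dynamins of neurons, fell, at -0.33 ± 0.04 and -0.45 ± 0.06 (adjusted p = 1.90e-06 and 4.02e-05), as did Opa1 of the inner mitochondrial membrane, at -0.34 ± 0.05 (adjusted p = 7.32e-05).

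C1ql4 belongs to the C1q-like proteins, which neurons secrete at synapses and which bind the adhesion receptor that the table names Bai3 (chr15:99084086-99087817, minus strand). C1ql4 measured 6.25, 6.21 and 5.11 in crushed IPA mice, against 3.82, 3.96 and 3.87 in crushed PBS mice. It measured 9.296, 10.99 and 8.897 in intact IPA mice, against 8.02, 7.301 and 8.79 in intact PBS mice. The groups did not overlap, but intact PBS replicate 3 and intact IPA replicate 3 were nearly equal. On the log2 scale, IPA minus PBS was 0.53 ± 0.10 after crush and 0.26 ± 0.10 intact, and without intact IPA replicate 2 the second value was 0.17. All 6 crushed libraries lay below the 6 intact ones, with a log2 difference of -0.82 ± 0.07 (SE; limma adjusted p = 2.37e-07). Its lowest library held 192 reads. Of 14 tested genes of C1q-like proteins, cerebellins and their receptors 2 rose and 8 fell, where 28.8% of all tested genes rose and 30.6% fell, and the list's median was -0.21 against -0.01 over all genes. Cbln2, a secreted cerebellin, averaged 54.4 ± 1.08 in crushed IPA mice and 56.4 ± 0.905 in crushed PBS mice, against 29.2 ± 0.125 in intact IPA mice and 28.4 ± 0.436 in intact PBS mice, and rose by 0.93 ± 0.03 (adjusted p = 6.31e-12). Nrxn3, Grik4 and Bai2 fell, at -0.43 ± 0.04, -0.31 ± 0.03 and -0.55 ± 0.06 (adjusted p = 8.93e-07, 2.52e-06 and 3.89e-06), and Bai3 fell, at -0.26 ± 0.05 (adjusted p = 5.80e-04). Of its paralogues, C1ql3 fell, at -0.22 ± 0.09 (adjusted p = 0.0352), C1ql1 stood at -0.04 ± 0.13 (adjusted p = 0.828), and C1ql2 did not pass the filter, with means of 0.366 in crushed IPA mice and 0.421 in crushed PBS mice, against 0.112 in intact IPA mice and 0.0912 in intact PBS mice.

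Bhlha9, a bHLH factor known for its part in limb development (chr11:76672470-76673676, plus strand), was higher in IPA mice in both states. Bhlha9 measured 9.19, 8.06 and 7.29 in crushed IPA mice, against 5.57, 5.75 and 5.96 in crushed PBS mice. It measured 11.1, 10.4 and 10.4 in intact IPA mice, against 8.48, 7.89 and 9.02 in intact PBS mice. IPA and PBS libraries did not overlap in either state. IPA minus PBS came to 0.47 ± 0.08 after crush and 0.32 ± 0.08 intact. Bhlha9 fell after crush, with a log2 difference of -0.44 ± 0.06 (SE; limma adjusted p = 2.27e-05). Its promoter is shown as the other window with 3 AhR core motifs, here on both strands: GCGTG and its complement CACGC stand in capitals in the 250 bases before the RefSeq start on GRCm38.p6 (chr11:76672220-76672469, plus strand).
Bhlha9 promoter: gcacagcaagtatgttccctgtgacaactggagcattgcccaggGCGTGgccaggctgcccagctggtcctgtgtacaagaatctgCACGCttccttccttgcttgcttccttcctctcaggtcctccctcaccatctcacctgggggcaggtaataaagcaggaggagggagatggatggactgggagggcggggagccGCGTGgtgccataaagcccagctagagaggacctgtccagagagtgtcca
Of 25 tested bHLH genes 5 rose and 9 fell after crush, where 28.8% of all tested genes rose and 30.6% fell, and the list's median was -0.04 against -0.01 over all genes; these shares are near each other. Bhlhe41, a repressor of the circadian system, averaged 118 ± 6.26 in crushed IPA mice and 112 ± 5.47 in crushed PBS mice, against 52.2 ± 0.105 in intact IPA mice and 49.4 ± 1.75 in intact PBS mice, and rose by 1.17 ± 0.04 (adjusted p = 4.95e-12). Myc, a growth regulator, rose by 0.77 ± 0.07 (adjusted p = 3.17e-07), and Neurog1, a proneural factor, by 0.88 ± 0.10 (adjusted p = 2.51e-06). Id4, which blocks other bHLH factors, fell, at -0.66 ± 0.05 (adjusted p = 5.44e-08).

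Ndn was higher in IPA than in PBS mice after crush, and the groups overlapped with the nerve intact. Ndn encodes necdin, a MAGE family protein expressed from the paternal allele, known in neurons as a regulator of growth arrest and survival (chr7:62346569-62350262, plus strand). Ndn measured 223, 181 and 213 in crushed IPA mice, against 149.9, 158 and 151 in crushed PBS mice. It measured 153, 156 and 165 in intact IPA mice, against 154, 146 and 169 in intact PBS mice. Crushed IPA mice stood above the other 3 groups, which lay between 146 and 169 together. The difference, IPA minus PBS, was 0.42 ± 0.07 after crush and 0.02 ± 0.07 intact. Its rise after crush, averaged over treatment, was a log2 difference of 0.17 ± 0.05 (SE; limma adjusted p = 0.00954). With array weights that rise was 0.13 (limma adjusted p = 0.0200) and the IPA minus PBS difference after crush 0.30 when fitted gene by gene, and 0.09 (limma adjusted p = 0.0331) and 0.26 in a fit that stopped before it converged. The crush minus intact difference was 0.37 ± 0.07 in IPA mice and -0.03 ± 0.07 in PBS mice. They are given as description, since the gap between them includes the IPA minus PBS difference after crush. Differences of that kind chose the members. Ndn overlaps a noncoding gene on the other strand, Gm32061, which is not used here.

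Of 28 other tested imprinted genes, 0 lay wholly higher in crushed IPA mice than in crushed PBS mice, where 5.86% of all tested genes did, and 4 lay wholly lower, where 5.58% did. After crush, averaged over treatment, 5 rose and 12 fell, where 28.8% of all tested genes rose and 30.6% fell, and the list's median was -0.16 against -0.01 over all genes. Snrpn, of the same imprinted cluster, is the table's name for an ID that GENCODE M21 gives as Gm38393. It averaged 511 ± 10.97 in crushed IPA mice and 494 ± 8.296 in crushed PBS mice, against 542 ± 6.29 in intact IPA mice and 521 ± 14.01 in intact PBS mice; its change after crush was -0.08 ± 0.03 (adjusted p = 0.0222). Magel2, the MAGE gene next to Ndn, did not pass the filter, with means of 0.325 in crushed IPA mice and 0.271 in crushed PBS mice, against 0.445 in intact IPA mice and 0.364 in intact PBS mice. Nnat rose by 1.23 ± 0.07 (adjusted p = 6.27e-09) and Grb10, which restrains insulin signalling, by 0.61 ± 0.04 (adjusted p = 7.79e-09). Nap1l5 and Peg10 fell, at -0.67 ± 0.04 and -0.83 ± 0.06 (adjusted p = 2.33e-09 and 3.32e-08). Of 7 tested MAGE genes 2 rose and 3 fell, where 28.8% of all tested genes rose and 30.6% fell, and the list's median was 0.01 against -0.01 over all genes. Maged1, a partner of the p75 neurotrophin receptor, averaged 776 ± 5.38 in crushed IPA mice and 769 ± 53.1 in crushed PBS mice, against 574 ± 9.32 in intact IPA mice and 541 ± 31.5 in intact PBS mice, and rose by 0.47 ± 0.04 (adjusted p = 1.50e-07), and Mageh1 rose by 0.36 ± 0.05 (adjusted p = 1.03e-05). Tro and Magee2 fell, at -0.32 ± 0.04 and -0.50 ± 0.07 (adjusted p = 2.54e-06 and 3.14e-05).

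Slc4a10 was the only member lower in IPA mice after crush with no overlap. It encodes a sodium-coupled bicarbonate transporter that brings bicarbonate into neurons (chr2:62046462-62326730, plus strand). Slc4a10 measured 3.52, 4.05 and 4.64 in crushed IPA mice, against 6.504, 6.15 and 5.61 in crushed PBS mice. It measured 6.901, 7.37 and 5.77 in intact IPA mice, against 6.82, 7.09 and 6.72 in intact PBS mice. The IPA and PBS libraries overlapped with the nerve intact. The IPA minus PBS difference was -0.53 ± 0.11 after crush and -0.05 ± 0.11 intact. Slc4a10 fell after crush, with a log2 difference of -0.41 ± 0.07 (SE; limma adjusted p = 3.09e-04); the values within treatment were -0.65 ± 0.11 in IPA mice and -0.16 ± 0.11 in PBS mice. Of 21 tested bicarbonate transporters, carbonic anhydrases and acid extruders 4 rose and 8 fell, where 28.8% of all tested genes rose and 30.6% fell, and the list's median was -0.11 against -0.01 over all genes. Slc4a8, the paralogue that exchanges chloride for bicarbonate with sodium, averaged 55.5 ± 2.73 in crushed IPA mice and 62.6 ± 4.63 in crushed PBS mice, against 21.5 ± 0.673 in intact IPA mice and 23.2 ± 1.33 in intact PBS mice, and rose by 1.38 ± 0.05 (adjusted p = 8.41e-12). Slc4a7, another paralogue, rose by 0.22 ± 0.06 (adjusted p = 0.00728). Car3, a carbonic anhydrase known from muscle and fat, rose by 2.27 ± 0.10 (adjusted p = 1.69e-10), beside the muscle markers given above. Car10 and Car8, which lack carbonic anhydrase activity, fell, at -0.47 ± 0.04 and -0.72 ± 0.08 (adjusted p = 5.89e-07 and 1.75e-06).

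Fam167a was the only member that was lower in intact IPA mice with no overlap (chr14:63436394-63465498, plus strand). Fam167a measured 11.2, 11.3 and 10.7 in crushed IPA mice, against 12.1, 11.04 and 11.8 in crushed PBS mice. It measured 12.4, 12.5 and 11.8 in intact IPA mice, against 15.9, 14.9 and 15.02 in intact PBS mice. Intact PBS mice stood above the other 3 groups, which lay between 10.7 and 12.5. Set against PBS mice, IPA mice differed by -0.06 ± 0.06 after crush, with overlap, and -0.31 ± 0.06 intact. Fam167a fell after crush, with a log2 difference of -0.26 ± 0.04 (SE; limma adjusted p = 1.65e-04); the values within treatment were -0.13 ± 0.06 in IPA mice and -0.38 ± 0.06 in PBS mice. Its paralogue Fam167b averaged 0.907 ± 0.197 in crushed IPA mice and 0.779 ± 0.166 in crushed PBS mice, against 0.851 ± 0.195 in intact IPA mice and 0.566 ± 0.113 in intact PBS mice, and its difference after crush was 0.16 ± 0.10 (adjusted p = 0.205).

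Per kilobase of exon, mean levels over the 12 libraries ordered the genes as Ppm1j (74.6), Ndn (45.5), Th (30.8), Rnf112 (24.5), Bhlha9 (6.85), Gpr162 (5.96), C1ql4 (4.66), Fam167a (2.94), Hcrtr1 (1.85) and Slc4a10 (0.923). The 12-library ranges of Ppm1j and Ndn did not overlap, nor did those of Rnf112 and Bhlha9, of Fam167a and Hcrtr1, or of Hcrtr1 and Slc4a10. The ranges of all other neighbours in that order overlapped. Ppm1j was above 97.1% of tested genes per kilobase and Slc4a10 above 23.2%.

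The genes whose log2 values were most like each member were sought over the 12 libraries. These share the large contrast of crush and hold the IPA minus PBS differences that chose the members, so the correlations are descriptions. Gpr162 and Bhlha9 were among each other's nearest, with r = 0.98, and Mid1ip1 was close to both, at 0.98 and 0.97. Rnf112 was most like Rab36 (r = 0.99), followed by Inpp5k and Kndc1 (0.99 each), C1ql4 like Ptdss2 (0.99), and Th like Rarres1 (0.98), Nrarp (0.98) and Hrh3 (0.97). Ppm1j was most like Stmn3 (0.97), Fam167a like Cntn5 (0.95) and Slc4a10 like Foxp2 (0.94). The nearest of Hcrtr1 and Ndn were less close, 2700094K13Rik at 0.89 and Sox2 at 0.88. Among the 45 pairs of members, r ranged from -0.85 to 0.98 with a median of 0.35. Over deviations from group means, which leave out the group differences, the 45 pairs ranged from -0.64 to 0.82 with a median of 0.24. Gpr162 and Bhlha9 stood at 0.69 there. By that measure no member was among the 3 nearest genes of another. Gpr162 was then nearest to Igfbp2 and C1ql4 to Peli3 (0.98 each), and Ppm1j to Cope (0.98).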

How the data were processed

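RNA was sequenced from L4 to L6 DRG in 12 libraries, 3 per group, each a pool of 2 mice; per the labels' protocols, libraries were directional, from poly(A) RNA, with paired reads. Build mm10 and the aligner STAR (2.7.0) appear in the submitters' processing notes, beside limma (3.38.3) and edgeR (3.24.3). How reads were assigned to genes is not given in the sources used here. A table of 44345 genes was deposited by the authors and is named as FPKM, but its values are CPM-like: 100.0% of the values of each library were whole multiples of 1 step (tolerance 1e-06), with no division by gene length, and whole reads were recovered from the steps. All columns were mapped to samples by name.

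The test was limma-trend (limma 3.58.1, R 4.3.3) on log2(value + 0.5) over the 15603 genes with at least 0.5 in at least 3 libraries, with group as the only term, all 12 libraries sharing 1 spread, and Benjamini-Hochberg adjustment over all tested genes at 0.05. edgeR 4.0.16 and DESeq2 1.42.0 were run on the recovered reads. The file was expected to hold FPKM or counts; limma was kept. Member differences between IPA and PBS are given without a test, since they chose the members. Gene models, GC content and exon lengths are from GENCODE M21 (GRCm38), and promoter windows of 250 bases from RefSeq (GRCm38.p6). The script was checked on simulated data. Same-numbered libraries had correlations of deviations of -0.25 to 0.29, against -0.35 to 0.29 for differently numbered ones. No pairing by number was seen, though these values cannot exclude a shared day or batch. Separate pools were taken as the replicates.

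The members and gene lists were chosen with earlier results of these data known. Named genes are the members, up to 4 called genes per list with the smallest p after crush, named ligands, partners and paralogues, and the 3 genes most like each member. Alternatives were other pseudocounts (0.1 and 1), filters, scalings, array weights, tools, a replicate block, omission of each library, the 6 compared libraries alone and, added after seeing the data, removal of GC and length trends and array weights fitted gene by gene.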

Additional observations from a re-analysis of the deposited data

How the results depend on the processing

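For the 10 genes after crush, averaged over treatment, each of the 24 alternatives run on that comparison kept 2 called higher and 7 called lower, and the 9 called genes kept their direction and call. Hcrtr1 was called nowhere and ranged from -0.01 to 0.06 when single libraries were left out. With the nerve intact, the small IPA minus PBS values of Ndn and Slc4a10 changed sign, at -0.03 to 0.07 and -0.12 to 0.05. Leaving out single libraries gave 4162 to 4789 genes higher and 4430 to 5071 lower over all genes, and 33 to 41 and 80 to 87 over the family lists. Quantile normalization gave 4144 higher and 5354 lower, against 4488 and 4777.

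For IPA against PBS, limma called 0 genes; the counts changed with these settings. DESeq2 called 9 higher and 6 lower after crush, and 1 higher and 2 lower intact. Array weights gave 2137 higher and 1863 lower after crush and 2444 and 1716 intact; that estimate stopped before it converged. Fitted gene by gene, array weights gave 232 and 92 after crush and 1931 and 1342 intact. The cause was not tested. Leaving out single libraries gave 0 to 1 higher after crush, 1 without crushed IPA replicate 2 and 1 without crushed IPA replicate 3, and 0 otherwise. Of the members' values, 12 of 250 moved by more than the spread between replicates after crush and 6 of 250 intact.

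Replicate numbers were tried as a replicate block, although no pairing by number was seen. The block gave 4408 higher and 4645 lower after crush and 0 for IPA against PBS, and changed no call of the 10 genes. Depth limits C1ql4, Hcrtr1, Slc4a10 and Bhlha9 most, with fewer than 300 reads in their lowest libraries.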

Other observations

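Genes beside the members on the chromosome were also examined; those named here were singled out after their values were seen. Mtmr9 lies 54153 bases from Fam167a. It averaged 90.3 in crushed IPA mice and 93.1 in crushed PBS mice, against 93.2 in intact IPA mice and 109 in intact PBS mice. Its IPA minus PBS difference with the nerve intact was -0.23 ± 0.08 (SE), beside -0.31 for Fam167a, and after crush it was -0.03. With the nerve intact it lay wholly lower in IPA mice, where 12.5% of all tested genes did. Rhoc, a small GTPase next to Ppm1j, averaged 135 in crushed IPA mice and 132 in crushed PBS mice, against 42.4 in intact IPA mice and 39.0 in intact PBS mice, and rose after crush by 1.71 ± 0.04 (limma adjusted p = 8.07e-13). Prph, an intermediate filament of sensory neurons that lies near C1ql4, averaged 2133 in crushed IPA mice and 1873 in crushed PBS mice, against 2004 in intact IPA mice and 1779 in intact PBS mice. After crush it lay wholly higher in IPA mice, where 5.86% of all tested genes did, and with the nerve intact the groups overlapped. Tusc5, next to Bhlha9, averaged 503 in crushed IPA mice and 464 in crushed PBS mice, against 739.9 in intact IPA mice and 723 in intact PBS mice, and fell after crush, at -0.60 ± 0.03 (limma adjusted p = 1.19e-09). Mapk7, a kinase near Rnf112, rose after crush by 0.20 ± 0.05 (limma adjusted p = 0.00579), where Rnf112 fell. Other neighbours did not overlap between IPA and PBS mice either. With the nerve intact, Mfap4 near Rnf112 (0.53), Col16a1 (0.41) and Pef1 (0.10) near Hcrtr1 and Mov10 near Ppm1j (0.39) lay wholly higher in IPA mice, where 12.7% of all tested genes did. After crush, Tusc5 (0.12) lay wholly higher, and Mfap4 (-0.64) and Dpp4 near Slc4a10 (-0.44) wholly lower, where 5.58% of all tested genes did. A link to the members was not tested.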
